A study of Mus musculus with 8 samples.

Results

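The 10 genes described here encode the core of the transforming growth factor-β (TGF-β) pathway: the ligands Tgfb1, Tgfb2 and Tgfb3, the receptors Tgfbr1, Tgfbr2 and Tgfbr3, the signal carrier Smad3, and the feedback genes Smad7, Skil and Pmepa1. They were chosen by symbol, out of 14860 genes with an annotated transcript cluster (the array's unit of measurement, 1 gene's set of exon probes), and each of the 10 had exactly 1 cluster of its own. RNA came from mouse keratinocytes of the MK546 line, which was made from newborn mice lacking integrin α3 and immortalized with SV40 large T antigen. The α3α9 line carried human α3 and human α9, the α3 line carried human α3, the α9 line carried human α9, and the null line was MK546 itself with neither. Human α3 had been introduced by stable transfection and human α9 by a retrovirus, and the labels do not say whether a line was 1 clone or a pool. All 4 lines lacked mouse α3 by genotype, carried large T and grew at 33 °C and 8% CO2 on collagen in medium with 0.05 mM calcium, 4% serum, 10 ng/ml EGF, 10 units/ml interferon-γ, 0.4 µg/ml hydrocortisone and 5 µg/ml insulin. No TGF-β was listed among the additions. Each line had 2 arrays, called biological replicates in the series' text, which does not say whether they were separate cultures, so the p-values rest on array-to-array spread that may be technical.

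TGF-β is secreted in a latent form that has to be released before it can bind, and integrins with an αv subunit are among the proteins that release it. The active ligand binds the type II receptor, which phosphorylates the type I receptor, and that in turn phosphorylates Smad2 and Smad3, which enter the nucleus with Smad4. Tgfbr3, also called betaglycan, is a co-receptor without a kinase domain that presents ligand, above all TGF-β2, to the type II receptor. Smad7, Skil and Pmepa1 are induced by the pathway and restrain it. In epidermis TGF-β is known for holding back keratinocyte division and for changing adhesion and matrix genes.

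Basal keratinocyte markers were bright in every line, with 8 of 8 above the array median on both arrays in the α3α9 line and 7 of 8 in each of the other lines. Their levels were not equal, however: Trp63, the basal-layer transcription factor gene, was lower in α3α9 than in null cells (log2 difference -0.94, adjusted p = 0.035), and Col17a1 and Lamb3, which encode basement membrane adhesion proteins, passed the test of any line (adjusted p = 0.022 and 0.048). Array scale was uneven: array medians were 82.8 and 127 in the α3α9 line, 109 and 97.4 in the α3 line, 118 and 96.8 in the α9 line, and 95 and 94.3 in the null line. The results are therefore given on the deposited scale and again after quantile normalization, which forces all 8 arrays to 1 distribution. Itga3, the gene disrupted in the mice of origin, gave a mean intensity of 1245 ± 91.3 in α3 cells and 971 ± 52.5 in null cells (SD, n = 2 each). The array's probes are those of the mouse gene while the introduced subunits are human, so this cluster did not check the labels. Titles mark the α3 and null arrays as re-analysis and the α3α9 and α9 arrays not, so any difference between those 2 sets of arrays and the presence of α9 cannot be told apart.

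Start-site sequence was taken from RefSeq (assembly GRCm38.p6) for 5 of the 10 genes. The search left out the chromosome that holds Smad7, so the count does not show whether RefSeq had a sequence for that gene. After quantile normalization Tgfb2 and Tgfbr1 passed a test between lines. Tgfb1 did not, at an adjusted p of 0.059 in α3α9 minus null. These genes were not tested against each other, and their windows are printed. Each runs 5′ to 3′ over 300 bases, from 250 before to 50 after the start. The Tgfb1 window lies at chr7:25686752-25687051 on the plus strand, that of Tgfb2 at chr1:186705940-186706239 on the minus strand, and that of Tgfbr1 at chr4:47352972-47353271 on the plus strand. RefSeq lists another start for Tgfbr1, with a window at chr4:47385966-47386265, and the first listed is printed.
Tgfb1: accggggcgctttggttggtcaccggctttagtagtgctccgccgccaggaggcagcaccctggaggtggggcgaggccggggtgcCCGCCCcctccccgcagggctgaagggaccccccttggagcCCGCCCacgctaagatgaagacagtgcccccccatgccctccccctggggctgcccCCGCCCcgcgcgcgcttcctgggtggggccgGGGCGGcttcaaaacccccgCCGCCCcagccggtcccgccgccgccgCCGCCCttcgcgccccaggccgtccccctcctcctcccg
Tgfb2: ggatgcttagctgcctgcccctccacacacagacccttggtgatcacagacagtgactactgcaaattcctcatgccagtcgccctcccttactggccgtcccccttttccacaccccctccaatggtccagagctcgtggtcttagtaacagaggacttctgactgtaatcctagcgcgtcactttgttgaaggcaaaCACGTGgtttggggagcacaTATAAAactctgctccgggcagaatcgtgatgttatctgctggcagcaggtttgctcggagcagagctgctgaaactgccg
Tgfbr1: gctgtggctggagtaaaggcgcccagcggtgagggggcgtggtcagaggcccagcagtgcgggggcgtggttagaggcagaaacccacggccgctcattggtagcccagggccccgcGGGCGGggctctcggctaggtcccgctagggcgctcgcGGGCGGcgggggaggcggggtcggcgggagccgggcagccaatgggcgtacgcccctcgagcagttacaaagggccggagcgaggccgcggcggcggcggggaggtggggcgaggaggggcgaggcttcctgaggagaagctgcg
Capitals mark exact matches, on either strand, to any of 6 motifs, and no marked match overlapped another. The motifs were the GC box GGGCGG, the cyclic AMP response element TGACGTCA, the Smad palindrome GTCTAGAC, the AP-1 site TGANTCA, the TATA box TATAAA and the E-box CACGTG. Tgfb1 held 6 GC boxes in a window of 77% G and C, and Tgfbr1 held 2 in a window of 74.7%. The window at the other Tgfbr1 start held 0 matches to any of the motifs, at 52% G and C. Tgfb2 held no GC box but 1 TATA box and 1 E-box, in a window of 54.3% G and C. Over 32851 mouse windows of the same length, 35.7% held the GC box, 13.6% the TATA box, 7.81% the AP-1 site, 7.15% the E-box, 1.79% the cyclic AMP response element and 0.213% the Smad palindrome. A match describes the letters of the window and shows no binding.

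**Figure D1:**
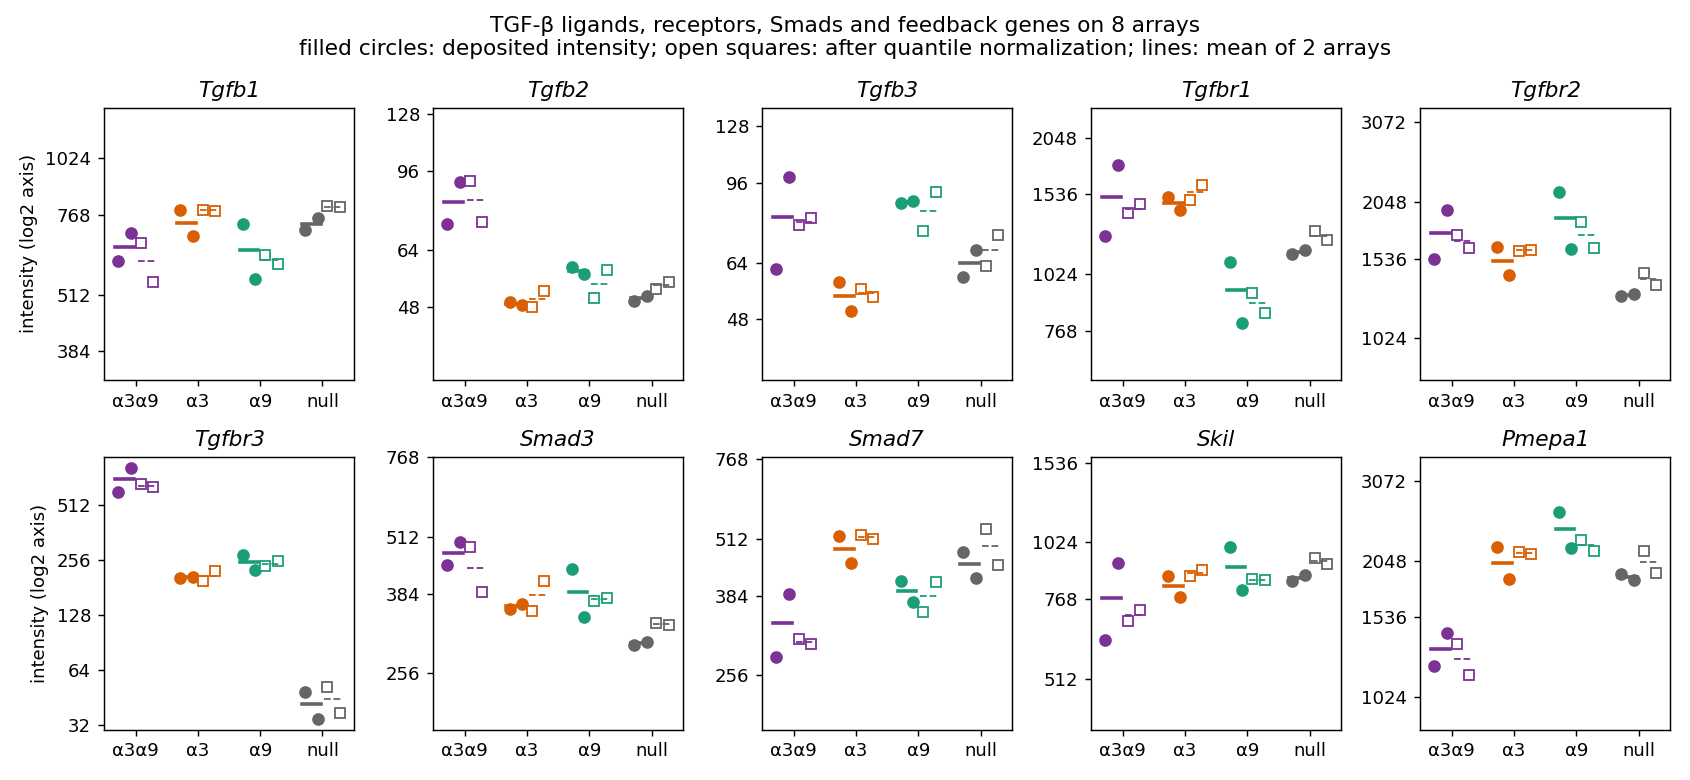
Intensity of the 10 TGF-β genes on each of 8 arrays (log2 vertical axes), for the α3α9, α3, α9 and null lines; filled circles are deposited values, open squares the same arrays after quantile normalization, and horizontal lines the mean of 2 arrays. Tgfbr3 lies at 609 and 819 in α3α9 cells and at 48.5 and 34.6 in null cells, and within the α3α9 line the deposited circles of all 10 genes are higher on array 2.

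Among the ligands, Tgfb1, the most widely expressed isoform, had intensities of 607 and 701 in α3α9 cells, 787 and 689 in α3 cells, 733 and 555 in α9 cells, and 710 and 755 in null cells. Its deposited values overlapped between lines in every comparison but α3α9 with null, where both α3α9 arrays were lower. After quantile normalization both lines with α9 sat below both lines without it: 665 and 547 in α3α9 cells and 625 and 597 in α9 cells, against 786 and 785 in α3 cells and 803 and 799 in null cells. The log2 difference on that scale was -0.37 ± 0.12 for α3α9 minus α3 (adjusted p = 0.070), -0.38 ± 0.12 for α9 minus null (0.069) and -0.40 ± 0.12 for α3α9 minus null (0.059), each ± its SE. None of these passed 0.05, and all 3 set arrays of one re-analysis status against the other. With α3 alone the difference from null was 0.01 ± 0.22 on the deposited scale.

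Tgfb2, the ligand that depends most on the co-receptor Tgfbr3, had intensities of 73.1 and 90.7 in α3α9 cells, 49.2 and 48.4 in α3 cells, 58.8 and 56.7 in α9 cells, and 49.5 and 50.8 in null cells. Both α3α9 arrays lay above all 6 arrays of the other lines, and every value was under its array's median. The ratio of means was 1.68 against α3 cells, 1.42 against α9 cells and 1.63 against null cells. On the deposited scale the log2 differences were 0.59 ± 0.19 against α3 (adjusted p = 0.13), 0.40 ± 0.19 against α9 (0.48) and 0.56 ± 0.19 against null (0.14). After quantile normalization α3α9 minus α3 (0.57, adjusted p = 0.022) and α3α9 minus null (0.50, adjusted p = 0.034) passed, and α3α9 minus α9 (0.49, adjusted p = 0.054) did not. The first call was lost without α3 array 1 or 2 or α3α9 array 1 (adjusted p up to 0.11), and the second also without either null array (up to 0.15).

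Tgfb3 gave 62.0 and 99.1 in α3α9 cells, 58.0 and 50 in α3 cells, 86.8 and 87.6 in α9 cells, and 59.4 and 68.3 in null cells, again under the array median on all 8 arrays. Both lines with α9 lay above the α3 line, but the α3α9 and null arrays overlapped. No comparison passed on either scale. The nearest to the threshold was α3α9 minus α3 after quantile normalization, at 0.42 ± 0.12 (adjusted p = 0.056).

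Of the signalling receptors, Tgfbr1, the type I kinase, gave 1241 and 1780 in α3α9 cells, 1518 and 1415 in α3 cells, 1089 and 800 in α9 cells, and 1131 and 1155 in null cells. The order of line means was α3α9, α3, null and α9, and the arrays of α3α9 and α3 cells overlapped. Both α3α9 arrays lay above both α9 arrays (log2 difference 0.66 ± 0.24, adjusted p = 0.29), and both α3 arrays lay above both null arrays (0.35 ± 0.24, adjusted p = 0.71). After quantile normalization α3α9 minus α9 passed at 0.68 ± 0.10 (adjusted p = 0.011) and α9 minus null passed as a fall of -0.48 ± 0.10 (adjusted p = 0.023). The first was lost without α9 array 2 (adjusted p = 0.078), and the second without any 1 of the 4 arrays compared (up to 0.13). The difference of α3 minus null on that scale was 0.32 ± 0.10 (adjusted p = 0.12), and the contrast between the 2 α3 effects did not pass (0.36, 95% interval 0.02 to 0.71, adjusted p = 0.30).

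Tgfbr2, the ligand-binding type II kinase, gave 1538 and 1967 in α3α9 cells, 1628 and 1412 in α3 cells, 2159 and 1616 in α9 cells, and 1270 and 1281 in null cells. Null cells were lowest, with all 6 arrays of the other lines above them. The largest difference was α9 minus null, at 0.54 ± 0.23 on the deposited scale (adjusted p = 0.21) and 0.31 ± 0.11 after quantile normalization (0.095). The 3 lines with an introduced subunit overlapped on the deposited scale, and no comparison of Tgfbr2 passed on either.

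Tgfbr3, the co-receptor, was the 1 gene of the 10 that differed in every comparison tested between lines on both scales. Its intensities were 609 and 819 in α3α9 cells, 204 and 207 in α3 cells, 272 and 225 in α9 cells, and 48.5 and 34.6 in null cells. Arrays did not overlap between any 2 lines, and the signal was under the array median only on the 2 null arrays. Line means were 714 ± 149 in α3α9 cells, 206 ± 1.98 in α3 cells, 249 ± 33.2 in α9 cells and 41.5 ± 9.85 in null cells (SD, n = 2 each).

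With α3 and no α9, Tgfbr3 was 4.96-fold higher in α3 cells than in null cells by the ratio of means, with a log2 difference of 1.96 ± 0.23 (adjusted p = 0.0023). In cells that also had α9 it was 2.87-fold higher in α3α9 cells than in α9 cells (1.45 ± 0.23, adjusted p = 0.011). These 2 comparisons stay within 1 set of arrays. Across the sets it was 5.99-fold higher in α9 than in null cells (2.21 ± 0.23, adjusted p = 0.0019) and 3.47-fold higher in α3α9 than in α3 cells (1.70 ± 0.23, adjusted p = 0.0056). The ratio of means of α3α9 to null cells was 17.2 (3.66 ± 0.23, adjusted p = 3.1e-05). The deposited values carry no detection call, and the null signals of 48.5 and 34.6 lay near the lower quartiles of their arrays, 33.3 and 33.2, so ratios against null cells compare intensities that include any background. The log2 scale adds 16 to each intensity and so understates differences from the dim null arrays.

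On the log2 scale the step with α3 was smaller where α9 was present, but the test of that change did not pass. In intensity the step was larger with α9: line means went from 249 to 714 with it and from 41.5 to 206 without it. The interaction was -0.50 ± 0.33 (95% interval -1.23 to 0.22, adjusted p = 1), and after quantile normalization -0.55 ± 0.20 (-1.02 to -0.07, adjusted p = 0.25). All 5 comparisons between lines also passed after quantile normalization, with differences of 1.91, 1.37, 2.12, 1.57 and 3.49 in the order given, and none was lost there when any 1 array was left out. On the deposited scale α3α9 minus α9 was lost without α9 array 2 (adjusted p = 0.097) and with a pseudocount of 1 (0.076), and α3α9 minus α3 without α3 array 1 or 2 (0.061 and 0.056). Its sizes there, 1.33, 1.51, 1.69 and 1.71, were close to those with all arrays.

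Betaglycan is also made by stromal and endothelial cells, so markers of other cell types were read beside it. Of 7 endothelial markers 1 lay above the array median on both arrays in the α3α9 line and 0 in each other line. Their summed intensity was 335 to 455 in α3α9 cells, 273 to 317 in α3 cells, 272 to 322 in α9 cells and 246 to 258 in null cells. One of them, the VEGF receptor gene Flt1, was higher in α3α9 cells than in α9 cells (log2 difference 1.23, adjusted p = 0.017) and than in null cells (1.45, adjusted p = 0.0037). Of 8 fibroblast markers 3 lay above the array median in each line, with sums of 651 to 834 in α3α9 cells, 649 to 725 in α3 cells, 770 to 875 in α9 cells and 732 to 758 in null cells. Of 6 leukocyte markers 2 were above it in α9 cells and 1 in each other line, with Cd68 higher in α9 than in null cells (1.11, adjusted p = 0.037), and of 6 melanocyte markers at most 1 was. Among the keratinocyte markers, Trp63 was lower in α3α9 than in null cells, as given above. The part of other cell types and of the change in keratinocyte markers in the Tgfbr3 result was not tested. In these cultures, fewer cells of a type and less RNA per cell cannot be told apart.

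Smad3, which carries the receptor signal to DNA, gave 444 and 500 in α3α9 cells, 356 and 365 in α3 cells, 435 and 341 in α9 cells, and 296 and 300 in null cells. Null cells were again lowest, below all 6 other arrays. Cells with both subunits showed the largest difference from null, 1.58-fold by the means and 0.63 ± 0.20 on the log2 scale (adjusted p = 0.11), or 0.39 ± 0.14 after quantile normalization (0.10). No comparison of Smad3 passed on either scale.

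The 3 feedback genes each had their lowest line mean in the α3α9 line. Pmepa1, a membrane protein that binds Smad2 and Smad3 and keeps them from the receptor, gave 1199 and 1417 in α3α9 cells, 2194 and 1865 in α3 cells, 2628 and 2184 in α9 cells, and 1919 and 1855 in null cells. Both α3α9 arrays lay below all 6 arrays of the other lines. The mean in α3α9 cells was 0.644 times that in α3 cells, 0.544 times that in α9 cells and 0.693 times that in null cells. On the deposited scale the log2 differences were -0.63 ± 0.21 against α3 (adjusted p = 0.13), -0.87 ± 0.21 against α9 (0.082) and -0.53 ± 0.21 against null (0.19).

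After quantile normalization all 3 passed for Pmepa1, at -0.77 ± 0.12 against α3 (adjusted p = 0.0076), -0.83 ± 0.12 against α9 (0.0090) and -0.71 ± 0.12 against null (0.0087). Each of these was lost when 1 array was left out, α3 array 1, α9 array 2 and null array 1 in that order, with adjusted p of 0.052, 0.053 and 0.064. Without α9 the α3 line did not differ detectably from null, at 0.10 ± 0.21 (95% interval -0.37 to 0.57, adjusted p = 0.96). The interaction was -0.97 ± 0.30 (95% interval -1.63 to -0.31, adjusted p = 0.57) and after quantile normalization -0.89 ± 0.16 (adjusted p = 0.080), so the difference between the 2 α3 effects did not pass on either scale.

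Smad7, the inhibitory Smad that competes at the type I receptor and recruits ubiquitin ligases to it, gave 281 and 388 in α3α9 cells, 521 and 454 in α3 cells, 414 and 372 in α9 cells, and 480 and 420 in null cells. Both α3α9 arrays lay below the α3 and null arrays and overlapped those of α9 cells. The log2 differences were -0.54 ± 0.22 against α3 (adjusted p = 0.21) and -0.43 ± 0.22 against null (0.34). After quantile normalization they passed, at -0.74 ± 0.13 (adjusted p = 0.011) and -0.67 ± 0.13 (0.014). The call against α3 was lost without either α3 array (adjusted p up to 0.065), and the call against null without null array 1 or either α3α9 array (up to 0.085).

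Skil encodes SnoN, a nuclear repressor of Smad target genes. It gave 625 and 922 in α3α9 cells, 864 and 776 in α3 cells, 999 and 804 in α9 cells, and 840 and 869 in null cells, and the 2 α3α9 arrays spanned most of the values of the other lines. After quantile normalization the α3α9 arrays, at 685 and 727, lay below the rest, which ranged upward from 844. Only α3α9 minus null passed there, at -0.39 ± 0.09 (adjusted p = 0.028), and it was lost without any 1 of 6 arrays, all but the 2 of the α9 line.

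**Figure D2:**
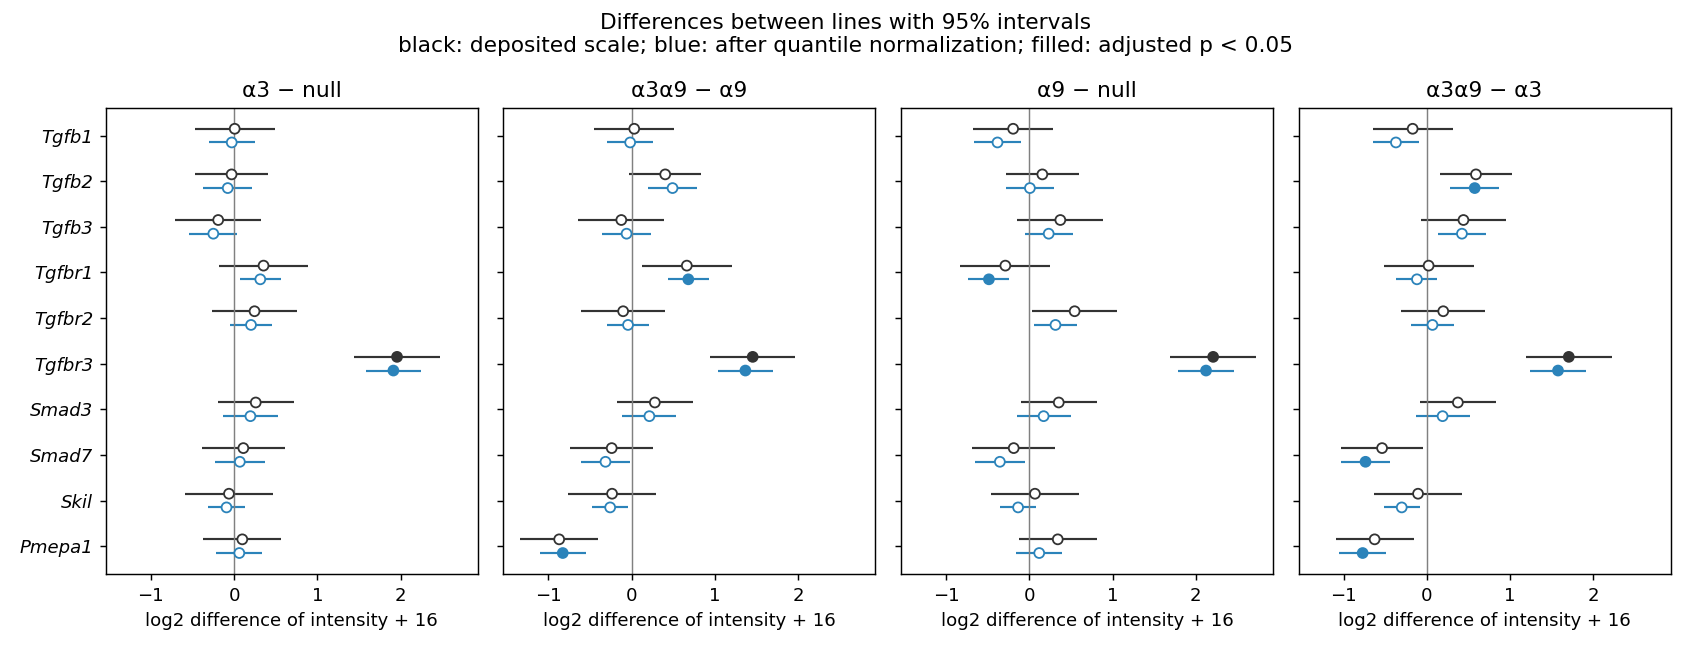
Log2 differences of intensity + 16 for the 10 genes in the 4 comparisons named above the panels, with 95% intervals (black, deposited scale; blue, after quantile normalization; filled where adjusted p is under 0.05). Tgfbr3 lies between 1.37 and 2.21 in all 4 panels on both scales, and every other point lies between -0.87 and 0.68.

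Across the 10 genes, 1 passed in each comparison between lines on the deposited scale, Tgfbr3 each time, and 0 in the interaction. The corresponding share of all 23332 clusters was 1.3% for α3 minus null, 1.87% for α3α9 minus α9, 4.32% for α9 minus null, 3.28% for α3α9 minus α3, 5.93% for α3α9 minus null and 0.0857% for the interaction. A test of any difference among the 4 lines passed for 1 of 10, against 10.4% of all clusters. After quantile normalization the count was 1 of 10 for α3 minus null, where 8.21% of all clusters passed, 3 for α3α9 minus α9 (9.96%), 2 for α9 minus null (17.1%), 4 for α3α9 minus α3 (18.8%) and 5 for α3α9 minus null (18.3%). It was 0 for the interaction (0.737%) and 5 for any line (31.7%). The median log2 difference of the 10 genes on that scale lay between -0.03 and 0.18 in the comparisons between lines, against -0.04 to 0.04 over all clusters. On the deposited scale the median over all clusters was 0.16 in α9 minus null and 0.11 in α3α9 minus null, and differences there include that shift. In the interaction on the deposited scale, 20 clusters passed by limma and 1329 had an unadjusted p under 0.05.

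The 6 calls of feedback genes after quantile normalization were all lower in α3α9 cells, and Tgfb2 was higher there in both of its calls. These calls share the same 2 α3α9 arrays and so are not separate results, and each was lost without at least 1 array. Over all clusters on that scale, 2347 were higher and 2042 lower in α3α9 minus α3. The counts were 1323 and 1002 in α3α9 minus α9, and 2297 and 1980 in α3α9 minus null. Tgfb1, Tgfb3, Tgfbr2 and Smad3 passed in no comparison on either scale. A miss does not show equal levels: the 95% interval of α3 minus null on the deposited scale ran from -0.47 to 0.49 for Tgfb1, from -0.70 to 0.33 for Tgfb3, from -0.26 to 0.75 for Tgfbr2 and from -0.19 to 0.72 for Smad3.

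Beyond the 10 genes, 89 of 103 other genes of the pathway were measured, in 6 lists. On the deposited scale 0 were higher and 1 lower in α3 than in null cells, and 0 were higher and 2 lower in α3α9 than in α9 cells. In α9 cells 8 were higher and 2 lower than in null cells. In α3α9 cells 3 were higher and 1 lower than in α3 cells, and 5 were higher and 1 lower than in null cells. Over all 23332 clusters the shares that passed were 1.3%, 1.87%, 4.32%, 3.28% and 5.93% in that order, and in α9 minus null 817 clusters were higher and 192 lower. The list median in α9 minus null was 0.25, against 0.16 over all clusters, and 0.08 against 0.00 after quantile normalization. On that scale the counts higher and lower were 3 and 8, 3 and 9, 19 and 4, 20 and 10, and 13 and 10 in the same order of comparisons, where 8.21%, 9.96%, 17.1%, 18.8% and 18.3% of all clusters passed. Of the 23 calls on the deposited scale, 20 were lost on leaving out at least 1 array and 23 also passed after quantile normalization.

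The target list held the largest change among them. Tgfbi, a secreted matrix protein named for its induction by TGF-β and a ligand of α3β1, gave 89.6 and 90.1 in α3α9 cells, 117 and 116 in α3 cells, 615 and 494 in α9 cells, and 261 and 313 in null cells. Both lines with α3 lay below both lines without it. The log2 difference was -2.42 ± 0.21 for α3α9 minus α9 (adjusted p = 3.4e-04, kept without any 1 array) and -1.19 ± 0.21 for α3 minus null (0.020). The call for α3 minus null was lost without any 1 of the 4 arrays compared (adjusted p up to 0.26) and stood at 0.0094 after quantile normalization. In α9 cells Tgfbi was higher than in null cells (0.91, adjusted p = 0.038, lost without any 1 of 6 arrays), and in α3α9 cells it was lower than in null cells (-1.51, adjusted p = 0.0025).

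Of 30 measured target genes, 3 were higher and 2 lower in α9 than in null cells, a comparison in which 4.32% of all clusters passed. Ccn2, a matricellular growth factor, gave 1439 and 1821 in α3α9 cells, 1055 and 698 in α3 cells, 3467 and 1975 in α9 cells, and 1041 and 1007 in null cells, and rose in α9 minus null (1.34 ± 0.30, adjusted p = 0.037). Bhlhe40, a transcriptional repressor, was highest in α9 cells at 1551 and 1577, against 601 and 770 in null cells (1.18 ± 0.21, adjusted p = 0.015). It was lower in α3α9 cells, at 555 and 648, than in α9 cells (-1.36 ± 0.21, adjusted p = 0.0094).

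Id1, an inhibitor of basic helix-loop-helix factors and better known as a target of the BMP branch, gave 183 and 296 in α3α9 cells, 773 and 605 in α3 cells, 259 and 158 in α9 cells, and 492 and 576 in null cells. Both lines with α9 lay below both lines without it, with differences of -1.33 ± 0.29 for α9 minus null (adjusted p = 0.036) and -1.49 ± 0.29 for α3α9 minus α3 (0.029). Tsc22d1, a leucine zipper factor, fell in α9 minus null (-1.31 ± 0.31, adjusted p = 0.044), with 315 and 187 in α9 cells, against 605 and 652 in null cells. The calls of Ccn2, Id1, Bhlhe40 and Tsc22d1 in α9 minus null were lost without either null array, and all 4 passed after quantile normalization.

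Among 16 measured regulators listed as negative, 4 were higher and 0 lower in α9 than in null cells, and the same counts held for α3α9 minus null. Of all clusters 4.32% and 5.93% passed in these comparisons, most of them higher. The list median in α9 minus null was 0.48, against 0.16 over all clusters, and 0.28 against 0.00 after quantile normalization. Ppp1r15a, which brings protein phosphatase 1 to the type I receptor and to eIF2α, gave 1361 and 1892 in α3α9 cells, 744 and 623 in α3 cells, 1521 and 1874 in α9 cells, and 439 and 538 in null cells. It was higher in α9 than in null (1.76 ± 0.24, adjusted p = 0.0056), in α3α9 than in α3 (1.22 ± 0.24, adjusted p = 0.028) and in α3α9 than in null cells (1.69 ± 0.24, adjusted p = 0.0032).

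The ubiquitin ligases Nedd4l and Smurf1, which act with Smad7 on the type I receptor, were both higher in α9 than in null cells. Nedd4l gave 592 and 971 in α3α9 cells, 327 and 300 in α3 cells, 658 and 691 in α9 cells, and 304 and 306 in null cells, with differences of 1.10 ± 0.25 for α9 minus null (adjusted p = 0.036) and 1.23 ± 0.25 for α3α9 minus α3 (0.029). Smurf1 gave 3109 and 3201 in α9 cells, against 1343 and 1330 in null cells (1.23 ± 0.21, adjusted p = 0.014). Ski, a nuclear repressor related to Skil, gave 733 and 570 in α9 cells, against 353 and 328 in null cells (0.89 ± 0.21, adjusted p = 0.048). Without null array 1, none of these 4 regulators passed in α9 minus null. Usp4 and Usp15 remove ubiquitin from the type I receptor and so do not act as the list's name says. On the deposited scale they passed only the test of any line (adjusted p = 0.043 and 0.028). After quantile normalization Usp15 was lower in α3 than in null cells (-0.74, adjusted p = 0.018), where 8.21% of all clusters passed. Rnf111 and Uchl5 also do not act as that name says, so the list median does not describe negative regulators alone.

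Itgb5, which pairs with αv, was the 1 of 13 latency and activation genes that passed on the deposited scale. It gave 1407 and 1694 in α3α9 cells, 740 and 715 in α3 cells, 1587 and 1237 in α9 cells, and 549 and 622 in null cells. Both lines with α9 lay above both lines without it, by 1.24 ± 0.21 for α9 minus null (adjusted p = 0.014) and 1.07 ± 0.21 for α3α9 minus α3 (0.030), and α3α9 exceeded null cells by 1.38 ± 0.21 (0.0052). The first was lost without either null array or α9 array 1. The second was lost without either null array or either α3 array, and the third without null array 1. Of 12 other receptors and co-receptors, 2 passed on the deposited scale, and only for any line. They were Acvr1b, an activin type I receptor, and Cd109, a co-receptor that restrains TGF-β signalling in keratinocytes (adjusted p = 0.036 and 0.041). Of 10 other Smads and adaptors, Smad1 and Hgs did so (adjusted p = 0.022 and 0.048), and of 8 activin-branch genes 0 did. After quantile normalization Cd109 (-1.22, adjusted p = 0.0018) and Smad1 (-1.04, adjusted p = 0.012) were lower in α3 than in null cells. In that comparison and scale 8.21% of all clusters passed. Of all clusters 10.4% passed the test of any line. In the 3 comparisons given for Itgb5 the shares were 4.32%, 3.28% and 5.93% in that order.

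**Figure D3:**
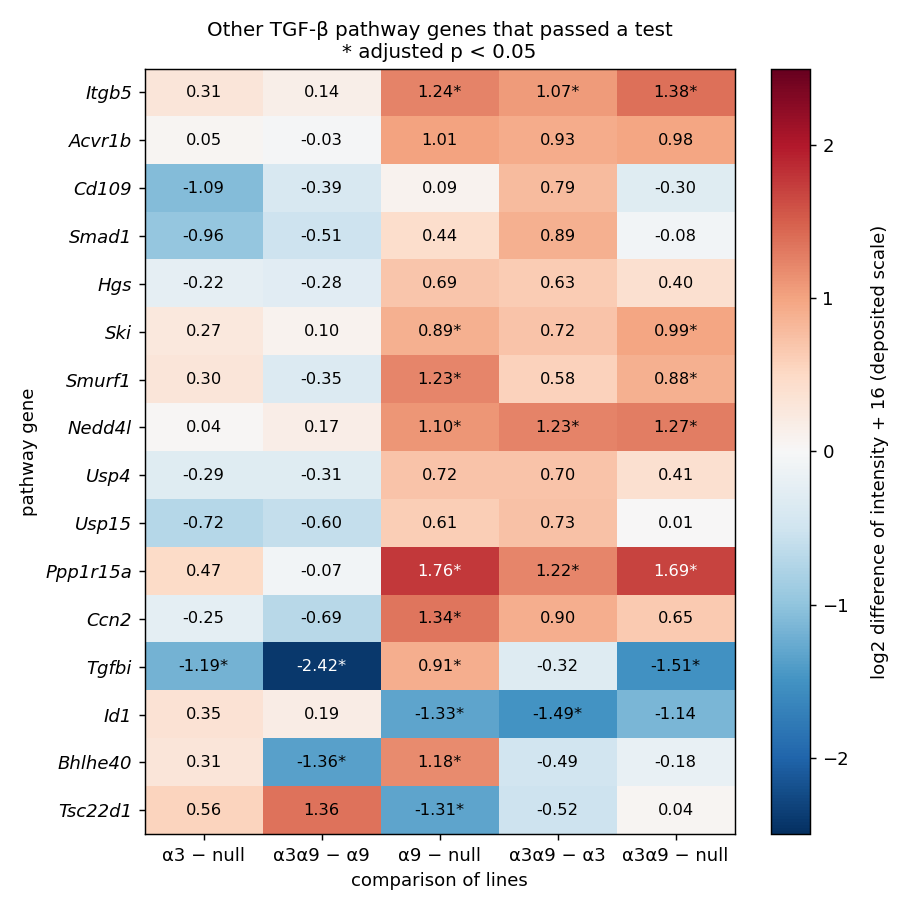
Log2 differences of intensity + 16 on the deposited scale for the 16 other pathway genes that passed at least 1 test (rows) in 5 comparisons of lines (columns), with an asterisk where adjusted p is under 0.05; red is higher and blue lower in the first-named line. Tgfbi is lowest in α3α9 minus α9 (-2.42), and Ppp1r15a is highest in α9 minus null (1.76).

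No measured gene close to Tgfbr3 differed by as much as it did. Among the 20 measured genes on each side in RefSeq gene order, 0 of 40 differed by as much as Tgfbr3 in any of the 5 comparisons between lines after quantile normalization. Their median log2 differences were 0.00 for α3 minus null, 0.03 for α3α9 minus α9, -0.08 for α9 minus null, -0.02 for α3α9 minus α3 and -0.06 for α3α9 minus null. Some neighbours differed in the same direction as Tgfbr3: Klhl8, named after its values were seen, was higher in all 5, by 0.60, 0.41, 0.79 and 0.60 in the first 4 and most in α3α9 minus null. For Pmepa1, 2 of 40 neighbours differed by as much in α3α9 minus α9, 7 in α3α9 minus α3 and 4 in α3α9 minus null. The share of all genes that differed by as much was not computed. The counts therefore do not show whether position in gene order matters.

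**Figure D4:**
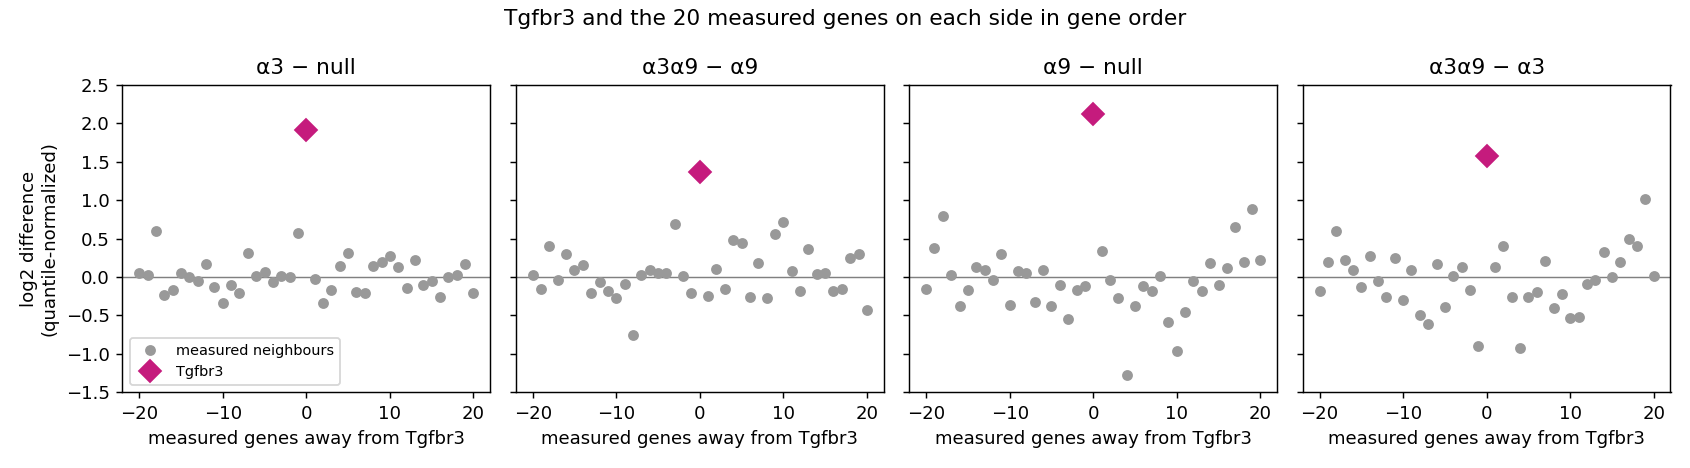
Log2 differences after quantile normalization (vertical axis) for Tgfbr3 (diamond) and the 20 measured genes on each side of it (grey points) against position in gene order, in 4 comparisons of lines. The diamond lies at 1.91, 1.37, 2.12 and 1.57, and 0 of 40 neighbours lies as far from 0 in any panel.

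The genes whose pattern over the 8 arrays was most like that of Tgfbr3 after quantile normalization were Tulp4, a tubby-family gene (Pearson r = 0.996), Porcn, the acyltransferase that lipidates Wnt proteins (0.994), and Zmat3, a zinc-finger RNA-binding protein induced by p53 (0.993). They came from 8741 genes with a mean intensity of at least 100, of which the 100th most alike had r = 0.953, and the 8 arrays are pairs from 4 lines. Porcn gave 2615 and 2959 in α3α9 cells, 1470 and 1355 in α3 cells, 1880 and 1501 in α9 cells, and 704 and 697 in null cells. As its choice by correlation implies, it had its highest arrays in α3α9 cells and its lowest in null cells, like Tgfbr3. The span between those lines was narrower than for Tgfbr3 in all 3.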

How the data were processed

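RNA of 8 samples, 2 from each of 4 lines, was measured on the Affymetrix Mouse Exon 1.0 ST array from 1 µg of total RNA after ribosomal RNA reduction, per the labels' protocols. The deposited values are linear intensities, 1 per transcript cluster and array, made with Affymetrix Expression Console and PLIER per the submitters' processing notes, while the series' text names the Exon Array Computational Tool. Versions, genome build and any filter were not given in the sources used here. Samples were grouped by title. Of 23332 clusters 14996 were annotated to 1 gene, 1019 to several and 7317 to none listed, and 14805 of 14860 genes matched RefSeq by Entrez number.

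All clusters were tested as log2(intensity + 16) on the deposited scale in limma 3.58.1 (lmFit, eBayes; R 4.3.3), with 1 mean per line, 4 residual degrees of freedom and Benjamini-Hochberg adjustment within each contrast (threshold 0.05). The interaction is the α3α9 minus α9 difference less the α3 minus null difference, and "any line" is the moderated F test. No set test was run. Alternatives were quantile normalization, scaling to a common median, pseudocounts of 1 and 64, leaving out the lowest 25% of clusters, the replicate number as a block, a fit of the 2 compared lines only, and omission of each array in turn. Fits with quantile normalization and 1 array omitted were added after seeing the data. A line left with 1 array was assumed to vary like the others. The fit was checked on simulated data with the same spread in all lines, so the check does not cover lines of unequal spread.

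The genes and lists were chosen with earlier results of these data known. Named besides the 10 genes are listed pathway genes that passed in at least 1 contrast (up to 6 per list by smallest adjusted p) and, for each of the 10 that passed on the deposited scale, the 3 genes with the highest correlation over 8 arrays (1 gene per cluster, mean of 100 or more, predicted genes passed over). Arrays give no read depth, so their number limits the precision. The 2 arrays of a line shared 0 identical values and correlated at 0.985 to 0.991. Figures were drawn with matplotlib 3.10.9.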

Additional observations from a re-analysis of the deposited data

How the results depend on the processing

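On the deposited scale Tgfbr3 was the only 1 of the 10 genes to pass in each of the 5 comparisons between lines. The 60 differences of the 10 genes were recomputed under all alternatives but the added ones, which gave 890 values: 863 kept their side of the threshold, 4 lost a call (all Tgfbr3), 23 gained one and 0 calls reversed. In 37 of them, over 18 differences, the sign changed while neither value passed. Genes of the 10 that passed numbered 1, 1, 1, 1, 1, 0 and 1 for α3α9 minus null, α3α9 minus α3, α3α9 minus α9, α3 minus null, α9 minus null, the interaction and any line. Quantile normalization gave 5, 4, 3, 1, 2, 0 and 5, and a common median 3, 4, 3, 1, 2, 0 and 5. A pseudocount of 1 lost Tgfbr3 in α3α9 minus α9 (0), and a pseudocount of 64 gave 2 there, 2 in α3α9 minus null and 2 for any line. Without 1 array the counts ran from 0 to 2 in α3α9 minus α9 and in α3α9 minus α3 and from 1 to 2 in α3α9 minus null. The cause of the added calls was not tested.

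Other pathway genes that passed numbered 6, 4, 2, 1, 10, 0 and 16 in the same order. They numbered 23, 30, 12, 11, 23, 2 and 42 after quantile normalization, and the 2 of the interaction were Bhlhe40 and Ldlrad4. A common median gave 15, 23, 5, 8, 17, 0 and 34, a pseudocount of 1 gave 3, 0, 1, 0, 1, 0 and 4, and a pseudocount of 64 gave 16 in α9 minus null. Leaving out the lowest 25% gave 2 in α3 minus null, 10 in α3α9 minus null and 1 in the interaction. The 2 compared lines alone gave 4 in α3 minus null. Without 1 array the counts ran from 2 to 13, 0 to 14, 1 to 3, 0 to 2, 0 to 18, 0 to 1 and 6 to 29. The lowest count in α9 minus null was without null array 1 and the highest without α3α9 array 1 or 2.

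Over all 23332 clusters, a common median gave 3633, 4199, 1854, 1359, 3107, 139 and 6716 calls in the same order, and a pseudocount of 1 gave 683, 165, 174, 151, 211, 0 and 807. A pseudocount of 64 gave 1755 in α3α9 minus null, 468 in α3α9 minus α9, 1495 in α9 minus null and 2987 for any line. Leaving out the lowest 25% gave 441 in α3 minus null, 1752 in α3α9 minus null and 59 in the interaction. The 2 compared lines alone gave 568 in α3 minus null. Calls of the main fit over all clusters numbered 1383, 765, 436, 303, 1009, 20 and 2429, and 4277, 4389, 2325, 1915, 3999, 172 and 7404 after quantile normalization. Without 1 array they ran from 411 to 2839, 88 to 2213, 169 to 918, 102 to 536, 156 to 2532, 2 to 202 and 1004 to 4851. The main direction turned with the α3α9 array left out: without array 1, 2016 were higher and 197 lower in α3α9 minus α3, 409 and 113 in α3α9 minus α9, and 2605 and 234 in α3α9 minus null; without array 2, 345 and 1217, 158 and 760, and 602 and 851. With all 8 arrays, the share of calls that was higher also moved between the deposited scale and quantile normalization. It went from 72.9% to 54.4% in α3 minus null, from 81% to 51.6% in α9 minus null and from 65.2% to 53.5% in α3α9 minus α3. In α3α9 minus null it went from 76.9% to 53.7%, in the interaction from 15% to 41.9%, and in α3α9 minus α9 from 56% to 56.9%. Deviations of same-numbered arrays from their line means correlated at -0.215 to 0.0727 between lines, the lowest for α9 with α3α9. That gave no sign that equal numbers mark paired samples, but shared handling of samples cannot be told from it. With the replicate number as a block the counts of the 10 genes were 1, 1, 1, 1, 1, 0 and 1, and those of the other pathway genes 5, 3, 2, 1, 6, 0 and 12. The median within-line SD on the log2 scale was 0.297 in α3α9, 0.141 in α3, 0.172 in α9 and 0.0987 in null cells. The fit pooled the variance of a cluster over all lines. A comparison of lines therefore had the same SE with α3α9 as without it, for Tgfbr3 0.23. With a larger spread in α3α9 cells, p-values of comparisons with that line may be too low. Those of comparisons without it may be too high.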

Other observations

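Other pathway genes passed after quantile normalization but not on the deposited scale, and the genes below were picked after their values were seen. In the latency list Ltbp1, which tethers latent TGF-β to matrix, gave 430 and 557 in α3α9 cells, 340 and 336 in α3 cells, 897 and 601 in α9 cells, and 641 and 587 in null cells. Each line with α3 lay below its partner without it, by -0.89 for α3 minus null (adjusted p = 0.014) and -0.61 for α3α9 minus α9 (0.036) after quantile normalization, and by -0.83 (adjusted p = 0.19) and -0.57 (0.39) on the deposited scale. Ldlrad4, a membrane relative of Pmepa1 that also holds Smads from the receptor, gave 294 and 404 in α3α9 cells, 556 and 499 in α3 cells, 578 and 502 in α9 cells, and 331 and 385 in null cells. After quantile normalization its interaction passed (-1.18, adjusted p = 0.029): it was higher with α3 alone (0.50, adjusted p = 0.035) and lower with α3 in the presence of α9 (-0.68, adjusted p = 0.012). Whether these calls survive leaving out an array was not tested.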
